A study of Mus musculus with 16 samples.

Results

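The genes described here are 6 genes by which phagocytes recognise and take up dying cells, among 30819 genes measured in macrophages and monocytes of mouse sarcomas. They were found by symbol: Gas6 and Pros1 encode ligands, Axl and Mertk receptors, Mfge8 a bridging protein and Stab1 a scavenger receptor. All 6 symbols matched a single row each, and all 6 passed the filter on low values in every comparison. The tumours grew from MN/MCA1 cells, a transplantable mouse fibrosarcoma line, injected under the skin of C57BL/6J mice and taken after 21 days. The hosts were C3 wild-type or C3-/- mice, the latter lacking complement component C3 in the host, while the injected tumour cells were the same in both. Wild-type mice 1 to 4 and knockout mice 6 to 9 each gave a macrophage and a monocyte library, so there were 4 groups of 4 mice and 16 libraries in all. Macrophages were sorted as F4/80+ Ly6C- cells and monocytes as Ly6C+ F4/80- cells, and both were CD45+ CD11b+ Ly6G- CD11c-. The sort markers at the RNA level followed the gates for Ly6c2 (means of 10.3 and 5.21 normalized reads in wild-type and knockout macrophages, 16220 and 14510 in monocytes) and for Adgre1, the gene of F4/80 (27260, 26350, 5929 and 7349). Ly6g was near 0 in all groups, whereas Itgax, the gene of CD11c, had means of 6201, 4979, 4421 and 2649 normalized reads in spite of the CD11c- gate.

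Cells that die expose phosphatidylserine on their surface. Gas6 and protein S, the product of Pros1, bind that lipid after a vitamin K-dependent carboxylation and bring it to the TAM receptor tyrosine kinases Tyro3, Axl and Mertk, which drive engulfment and restrain inflammatory signalling in macrophages. Mfge8 links the same lipid to integrins, and stabilin-1, the product of Stab1, binds it directly on the phagocyte. Macrophages of tumours and resting tissues are known for their use of Mertk and Axl in this clearance.

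Normalized reads below are reads recovered from the deposited values and divided by the library's size factor. Log2 differences are on the deposited log2 scale, which draws differences toward 0, so they are smaller than the changes in reads. Tests are limma's moderated test over all genes kept, with Benjamini-Hochberg adjustment, and a gene was called at an adjusted p under 0.05. Libraries held 18689700 to 29035390 recovered reads. Reads assigned to C3, the targeted gene, ran from 3262 to 4830 normalized reads in wild-type macrophages and had a mean of 1234 ± 168 in knockout macrophages (SD, n = 4), without overlap. In monocytes the C3 means were 15160 ± 718 and 4925 ± 288 (SD, n = 4 each), also without overlap, so C3 went with the genotype labels in all 16 libraries.

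Of the 6 genes, Gas6, Mertk and Mfge8 were lower in C3 knockout than in wild-type macrophages, and Axl, Pros1 and Stab1 did not pass the test. The calls of Mertk and Mfge8 were lost under some alternatives, given below. The count of 3 called of 6 stands beside 5.7% called of all 12568 genes tested in that comparison, 3.13% in the lower direction. In monocytes limma called none of the 6, where 3.32% of 12867 genes were called; Pros1 and Mertk had an unadjusted p under 0.05 there, and limma-voom on recovered reads called none. Between the cell types Gas6, Mertk, Axl and Stab1 were higher in macrophages than in monocytes of both genotypes, in a comparison in which over 60% of all genes were called. Each count is set out below by role.

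The stretches of 250 bases before the RefSeq start of the 3 genes that fell, and of Axl, whose level differed little, are shown because they are the promoter regions of receptors and ligands that behaved differently in the same cells. They are from build GRCm38.p6, 5′ to 3′ on the strand of the gene, and capitals mark the GC box GGGCGG or its complement CCGCCC. Gas6 is at chr8:13494536-13494785 on the minus strand, Mertk at chr2:128698665-128698914 on the plus strand, Mfge8 at chr7:79149061-79149310 and Axl at chr7:25788734-25788983, both on the minus strand.
Gas6: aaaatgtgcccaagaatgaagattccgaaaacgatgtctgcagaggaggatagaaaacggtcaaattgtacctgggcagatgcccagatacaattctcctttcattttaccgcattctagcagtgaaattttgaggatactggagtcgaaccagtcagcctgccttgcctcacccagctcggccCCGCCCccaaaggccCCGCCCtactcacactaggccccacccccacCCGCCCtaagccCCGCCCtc
Mertk: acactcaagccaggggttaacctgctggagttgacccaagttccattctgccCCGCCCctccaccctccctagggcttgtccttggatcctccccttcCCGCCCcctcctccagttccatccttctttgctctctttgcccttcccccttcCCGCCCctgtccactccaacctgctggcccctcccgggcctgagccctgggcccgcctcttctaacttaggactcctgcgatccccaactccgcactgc
Mfge8: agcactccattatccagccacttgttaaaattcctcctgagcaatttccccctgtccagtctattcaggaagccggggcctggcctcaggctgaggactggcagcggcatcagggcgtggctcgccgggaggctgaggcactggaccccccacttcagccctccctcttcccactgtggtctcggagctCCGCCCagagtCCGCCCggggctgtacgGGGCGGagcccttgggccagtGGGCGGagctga
Axl: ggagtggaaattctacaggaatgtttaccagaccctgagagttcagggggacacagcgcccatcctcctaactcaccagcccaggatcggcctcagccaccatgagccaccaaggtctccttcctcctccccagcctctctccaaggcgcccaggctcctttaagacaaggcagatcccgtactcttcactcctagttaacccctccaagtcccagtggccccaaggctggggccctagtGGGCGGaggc
The GC box, on either strand, was present in the 300-base window (50 bases past the start included) of 6 of 7 genes, Tyro3 included and Stab1 excepted. It is held by 35.7% of all 32851 promoter windows of RefSeq. In the window of Gas6 and in that of Mfge8 it occurred 4 times, in that of Mertk 4 times and in that of Axl 2 times. The GC box was thus present in the genes that fell and in Axl alike. Whether its number goes with their levels was not tested. The GC content of the 250 bases of the 4 sequences shown ran from 54.8% for Gas6 to 65.2% for Mfge8, beside a median of 52.4% over all promoters. It was 57.2% for Stab1, 64.4% for Pros1 and 73.2% for Tyro3, so all 7 genes were above that median. The 35.7% is a share of all promoters, not of promoters with a like GC content. Of the other motifs searched on both strands, the PU.1 core GAGGAAGT (3.20% of all windows), the AP-1 site TGANTCA (7.81%), the E-box CACGTG (7.15%), the Maf site TGCTGAC (4.67%), the interferon-stimulated response element (3.44%), the TATA box TATAAA (13.6%) and the LXR direct repeat (0.0152%) had no match in the windows of these 7 genes. Matches of the GC box can overlap each other, as in Pros1.

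**Figure D1:**
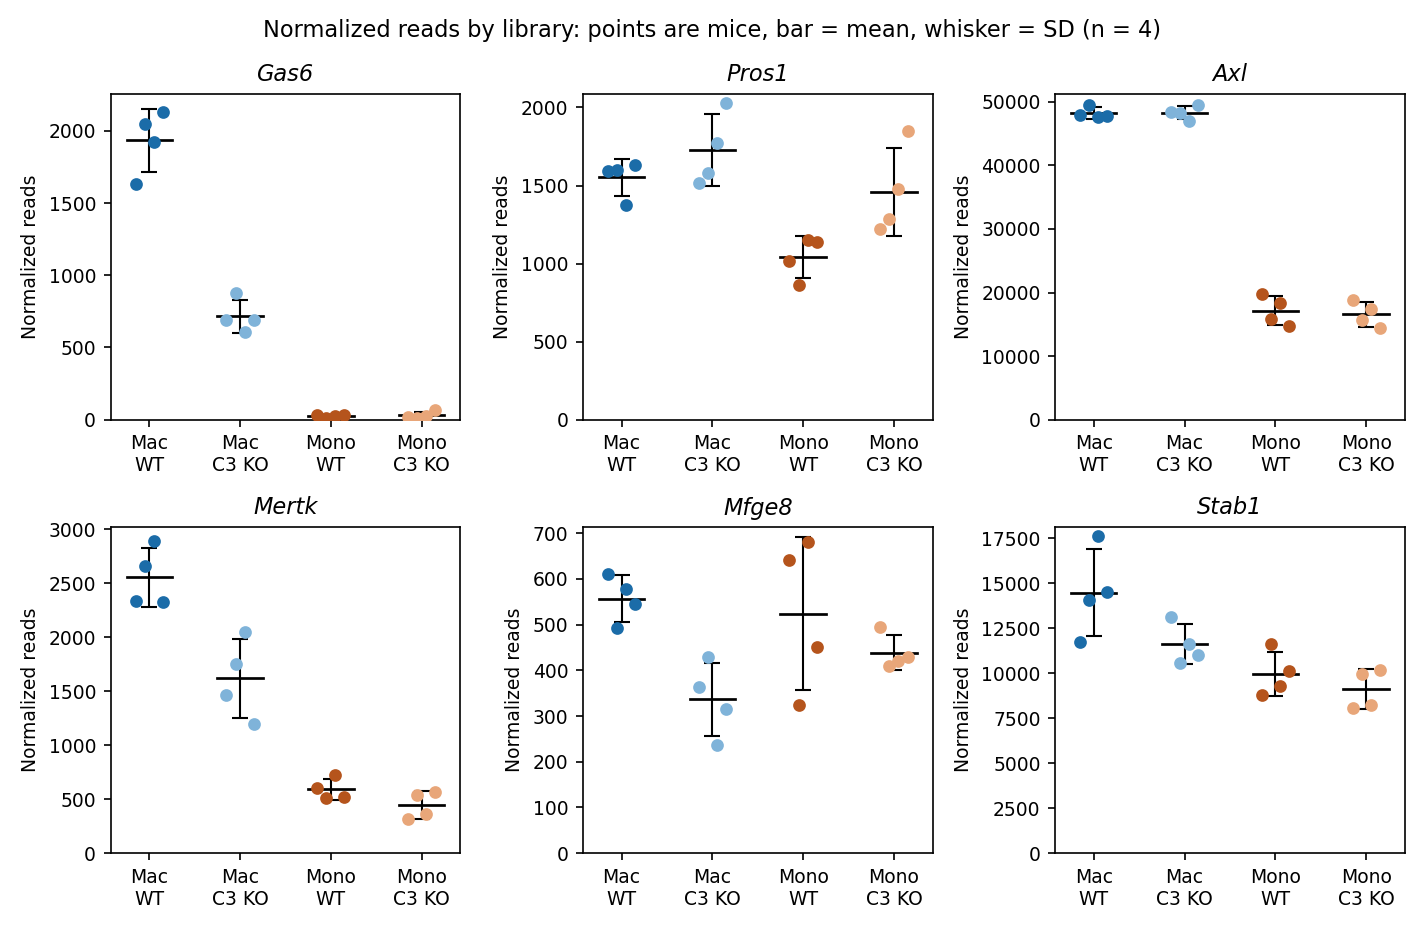
Normalized reads of the 6 genes (y axes, starting at 0) in macrophages (Mac) and monocytes (Mono) of wild-type (WT) and C3 knockout (C3 KO) mice. Points are libraries of single mice, bars are means and whiskers SD (n = 4). The 4 knockout macrophage values of Gas6, at most 878.2, lie below the lowest wild-type value of 1633, and the Axl values of both macrophage groups coincide.

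Gas6 (GRCm38 chromosome 8, 13465374 to 13494490, minus strand) encodes the ligand that binds all TAM receptors. In wild-type macrophages it had 1633, 2049, 1920 and 2130 normalized reads in mice 1 to 4. In knockout macrophages it had 690.7, 878.2, 608.9 and 686.9 in mice 6 to 9. Every knockout library was below every wild-type library, which 7.03% of all genes tested showed in that direction. The knockout mean was 0.371 times the wild-type mean. The log2 difference was -1.14 ± 0.09 (SE; 95% interval -1.34 to -0.94; limma, adjusted p = 2.27e-05), and the gene was called under every alternative. In these sorted bulk samples, fewer cells that express a gene and less RNA per cell cannot be told apart. In monocytes Gas6 was low in all 8 libraries, at 32.1, 14.1, 23.5 and 29.4 normalized reads in wild-type mice and 15.03, 10.8, 24.1 and 69.1 in knockout mice. Knockout mouse 9 stood above the other monocyte libraries, with 85 recovered reads against 9 to 27 in the others. The log2 difference between genotypes in monocytes was 0.01 ± 0.24 (SE; adjusted p = 0.983), with an interval of -0.50 to 0.53 that leaves room for a change in either direction. An overlap of 34 exon bases with Tmem255b on the other strand could share reads in this unstranded protocol, but Tmem255b itself had a mean of at most 0.792 normalized reads in any group.

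Pros1 (chromosome 16, 62854307 to 62929346, plus strand) encodes protein S, the anticoagulant plasma protein that is also a ligand of Mertk and Tyro3. Macrophages held 1594, 1602, 1378 and 1632 normalized reads in wild-type mice against 1518, 1578, 1774 and 2031 in knockout mice. These ranges overlap, and the log2 difference of 0.11 ± 0.07 (SE; 95% interval -0.04 to 0.25) did not pass (limma, adjusted p = 0.431). Monocytes held 1019, 860, 1153 and 1136 in wild-type mice against 1219, 1285, 1478 and 1851 in knockout mice. All 4 knockout monocyte libraries were above all 4 wild-type ones, at 1.40 times the mean, which 4.97% of all genes tested did in that direction. The log2 difference of 0.34 ± 0.10 (SE) had an adjusted p of 0.0922 in the limma test of the 8 monocyte libraries and was not called. It passed with all 16 libraries in 1 fit (limma, adjusted p = 0.0312). The authors' deposited table gives Pros1 a monocyte difference of 0.48 with an adjusted p of 0.00781.

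The ratio of the ligands was taken within each library. Per kilobase of exon, Gas6 stood at 2.01 ± 0.25 times Pros1 in wild-type macrophages (SD, n = 4; range 1.64 to 2.24) and at 0.679 ± 0.167 times in knockout macrophages (range 0.543 to 0.893). In monocytes the ratio was 0.0378 ± 0.0106 and 0.0298 ± 0.0207 (SD, n = 4 each). Gas6 was thus the more abundant ligand RNA per length in all 4 wild-type macrophage libraries, and Pros1 in the other 12.

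Axl (chromosome 7, 25757273 to 25788705, minus strand), the receptor that Gas6 binds most tightly, had the highest level per exon length of the 7 genes in each group. Wild-type macrophages held 47940, 49550, 47550 and 47690 normalized reads, and knockout macrophages 48400, 48260, 46940 and 49470. Both sets lie in the same narrow range, with coefficients of variation of 1.93% and 2.15%. The log2 difference was 0.00 ± 0.04 (SE; limma, adjusted p = 0.987) and its 95% interval of -0.08 to 0.08 bounds a change on the deposited scale tightly. Monocytes held 19820, 15760, 18320 and 14780 in wild-type mice against 18890, 15630, 17350 and 14400 in knockout mice, again overlapping (log2 difference -0.03 ± 0.08 SE, adjusted p = 0.880).

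Mertk (chromosome 2, 128698956 to 128802894, plus strand), the receptor most closely tied to engulfment by macrophages, did not share that pattern. Wild-type macrophages held 2333, 2660, 2891 and 2329 normalized reads and knockout macrophages 1468, 1752, 2052 and 1199. The lowest wild-type library stood above the highest knockout library, and the knockout mean was 0.634 times the wild-type mean. The log2 difference of -0.51 ± 0.11 (SE) passed the test (limma, adjusted p = 0.0337), but not with TMM scaling (-0.49, adjusted p = 0.0654) and not without wild-type mouse 1, 2, 3 or 4 or knockout mouse 6 or 7 (adjusted p from 0.0529 to 0.0948). For Mertk the authors' deposited table gives a macrophage difference of -0.66 and an adjusted p of 0.0117. Monocytes held 607.6, 512.2, 721.3 and 522.1 in wild-type mice against 311.9, 539.9, 362.8 and 566.3 in knockout mice. Knockout mice 6 and 8 were below all wild-type monocytes and mice 7 and 9 within their range, and the difference of -0.29 ± 0.13 (SE) was not called (adjusted p = 0.276).

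With Axl level and Mertk lower, the ratio of Axl to Mertk per exon length had a mean of 16.4 ± 1.67 in wild-type and 26.9 ± 6.80 in knockout macrophages (SD, n = 4 each). The ranges of 14.2 to 17.7 and 19.7 to 35.5 did not overlap. In monocytes they did, at 21.9 to 28.1 and 21.9 to 52.2.

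Tyro3 (chromosome 2, 119797733 to 119818104, plus strand), the TAM receptor outside the 6 genes, was close to the limit of detection. Macrophage libraries held 7 to 23 recovered reads in wild-type and 2 to 13 in knockout mice, and monocyte libraries 11 to 34 and 15 to 22. It did not pass between genotypes in macrophages (log2 difference -0.34, limma, adjusted p = 0.438) or in monocytes (-0.15, adjusted p = 0.790).

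**Figure D2:**
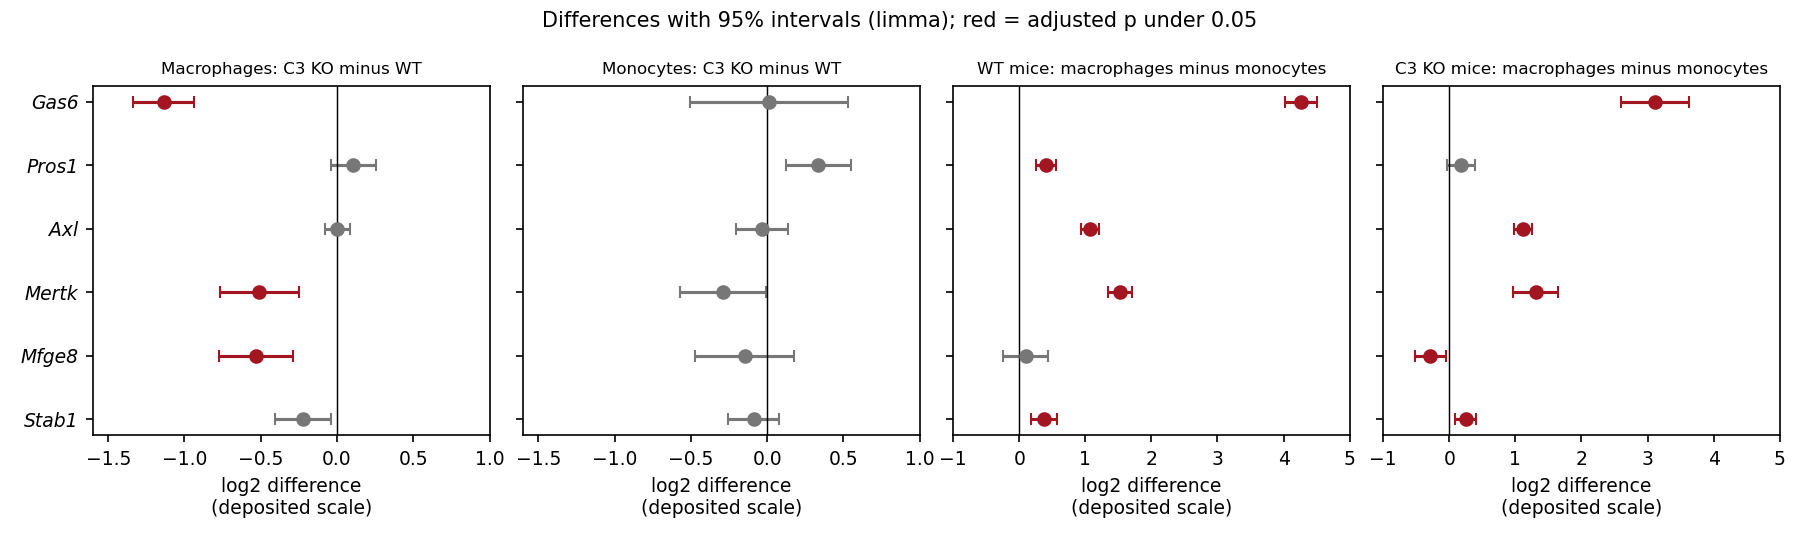
Log2 differences on the deposited scale (x axes) of the 6 genes with 95% intervals from limma (4 libraries a group), red where the adjusted p was under 0.05. Axl lies at 0.00 between genotypes in macrophages, where Gas6 (-1.14), Mfge8 (-0.53) and Mertk (-0.51) lie to the left, and Gas6 has the largest difference between cell types of these 6 genes (4.27 and 3.12).

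Mfge8 (chromosome 7, 79133768 to 79149060, minus strand) encodes a secreted protein that joins phosphatidylserine to alpha v integrins. Wild-type macrophages held 611.0, 492.7, 578.9 and 546.0 normalized reads and knockout macrophages 363.3, 429.3, 237.2 and 315.6. The groups did not overlap, and the knockout mean was 0.604 times the wild-type mean. The log2 difference was -0.53 ± 0.11 (SE; limma, adjusted p = 0.0169). The call was lost without wild-type mouse 1 (adjusted p = 0.0536), wild-type mouse 3 (0.0514) or knockout mouse 9 (0.0579), with differences of -0.50 to -0.52. Monocytes held 642.2, 324.8, 680.0 and 450.2 in wild-type mice against 496.0, 409.7, 421.6 and 429.0 in knockout mice. Wild-type monocytes spread widely around the knockout values, and the difference of -0.15 ± 0.15 (SE) did not pass (adjusted p = 0.676).

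The genes around Mfge8 on chromosome 7 were also compared, a feature looked for after the values were seen. Of 42 other genes tested within 2.5 Mb of its start, 11 were called in macrophages (26.2%) and 8 in monocytes (19.0%), beside 5.7% and 3.32% of all genes tested. Of these, 6 were called in both cell types, which is 6 of the 11 and 6 of the 8. The 6 shared genes were Aen, Sema4b, Hddc3, Man2a2, Blm and Whamm. Of these Sema4b had the largest macrophage difference (log2 difference -2.37, limma, adjusted p = 2.60e-07), and Hddc3 moved the other way (1.51, adjusted p = 8.21e-06). Around the others, over the same distance in macrophages, 1 of 37 genes was called near Gas6, 0 of 6 near Pros1, 6 of 71 near Axl, 6 of 75 near Mertk and 0 of 37 near Stab1. The monocyte counts were 1 of 36 near Gas6, 0 of 6 near Pros1, 2 of 75 near Axl, 5 of 76 near Mertk and 1 of 37 near Stab1. The strain history of the knockout allele is not given in the sources used here, and whether the difference of Mfge8 goes with its position was not tested.

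**Figure D3:**
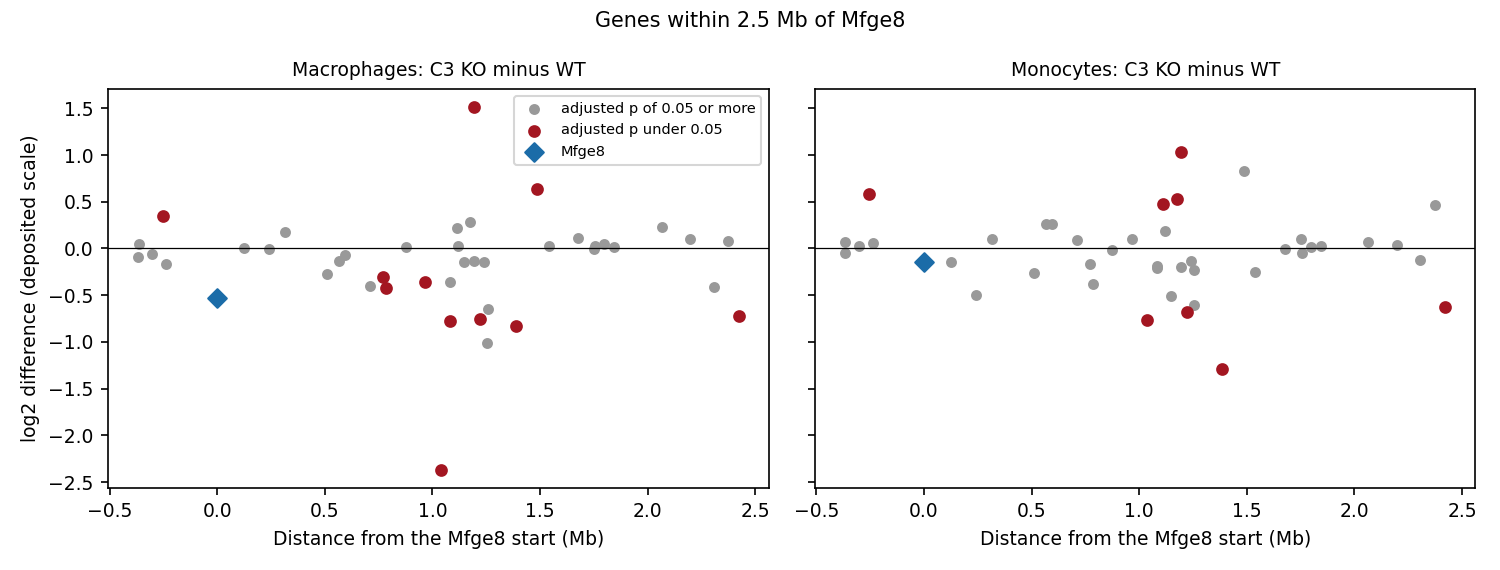
Log2 difference between C3 knockout and wild type (y axis, deposited scale) of genes tested within 2.5 Mb of Mfge8 against their distance from its start in Mb (x axis, positive toward higher coordinates), in macrophages and monocytes. Red points are the 11 and 8 called neighbours, and the diamond is Mfge8 at -0.53 and -0.15. Called neighbours lie above and below 0 in both cell types.

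Stab1 (chromosome 14, 31139013 to 31168641, minus strand), the scavenger receptor, was the second most abundant of these genes per exon length in each group. Wild-type macrophages held 11720, 14050, 17650 and 14520 normalized reads and knockout macrophages 13140, 10590, 11650 and 11030. Wild-type mouse 1 was below knockout mouse 6, so the groups overlap. The log2 difference of -0.22 ± 0.08 (SE) was not called (limma, adjusted p = 0.160), though it passed without wild-type mouse 1 (-0.29, adjusted p = 0.0457). In monocytes 8793, 11630, 9279 and 10120 in wild-type faced 8082, 9982, 8210 and 10180 in knockout mice (log2 difference -0.09 ± 0.08 SE, adjusted p = 0.613). Stab1 shares 112 exon bases with Nt5dc2 on the other strand, whose means were 1878, 1600, 4985 and 3700 normalized reads, so a small part of its reads may come from that gene.

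Whether the knockout difference itself differed between cell types was tested for each gene over all 16 libraries. Limma called none of the 6 genes (1 at an unadjusted p under 0.05, and none with voom on recovered reads), where 0.617% of 13134 genes were (81 genes, or 251 with the mouse as a replicate block). The largest value of the 6 was that of Gas6, at -1.15 ± 0.27 on the log2 scale (SE; limma, unadjusted p = 0.000636, adjusted p = 0.0696). It passed without knockout monocyte library 7 (-1.29, adjusted p = 0.0267) or 9 (-0.90, adjusted p = 0.0280). The values of Mfge8 (-0.38, adjusted p = 0.497), Pros1 (-0.23, adjusted p = 0.536), Mertk (-0.22, adjusted p = 0.738), Stab1 (-0.13, adjusted p = 0.752) and Axl (0.04, adjusted p = 0.930) did not pass, nor did that of Tyro3 (-0.19, adjusted p = 0.884). The calls of Mertk and Mfge8 in macrophages and not in monocytes therefore do not show that the effect differed.

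Between cell types, 5 of the 6 genes were higher in macrophages than in monocytes of wild-type mice and none lower, where 63.4% of all 12769 genes were called and 31.7% were higher. Gas6 was 78.0 times as high by the group means (log2 difference 4.27 ± 0.11 SE, limma, adjusted p = 1.55e-10), and 50.9 to 145 times as high within single mice. Mertk was 4.32 times as high (1.53 ± 0.08 SE, adjusted p = 4.59e-08; 3.84 to 5.19 times within mice). Axl was 2.81 times as high (1.07 ± 0.06 SE, adjusted p = 6.07e-08; 2.42 to 3.23 times within mice). Differences of Pros1 (1.49 times, 0.41 on the log2 scale, adjusted p = 0.0003) and Stab1 (1.46 times, 0.38, adjusted p = 0.00347) were smaller. Mfge8 did not pass, with 557.1 ± 50.5 normalized reads in macrophages and 524.3 ± 166.8 in monocytes (SD, n = 4 each; log2 difference 0.10 ± 0.15 SE, adjusted p = 0.587).

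In knockout mice, where 60.5% of 12772 genes were called, the order was the same at the top. Gas6 was 24.1 times as high in macrophages by the means (3.12 ± 0.23 SE, limma, adjusted p = 1.35e-06), with 9.95 times in mouse 9 as the lowest and 81.0 times as the highest. Axl (1.11, adjusted p = 2.29e-08), Mertk (1.31, adjusted p = 4.97e-05) and Stab1 (0.25, adjusted p = 0.00903) were higher too, the last not with TMM scaling (0.18, adjusted p = 0.0509). Pros1 had macrophage values of 1.10 to 1.25 times those of the same animal's monocytes in all 4 knockout mice. Its difference of 0.18 ± 0.10 (SE) did not pass (adjusted p = 0.126) but did with the mouse as a replicate block (adjusted p = 0.0145) and without monocyte library 9 (0.27, adjusted p = 0.0143). Mfge8 was lower in knockout macrophages than in knockout monocytes (-0.29 ± 0.11 SE, adjusted p = 0.0400), although the groups overlap at 237.2 to 429.3 and 409.7 to 496.0 normalized reads, and it did not pass without the filter on low values (adjusted p = 0.0845), in a single fit of the 16 libraries (0.0888) and without monocyte library 6, 7, 8 or 9 or macrophage library 8 or 9 (0.0536 to 0.113). Tyro3 was lower in macrophages of knockout mice (-0.64 ± 0.19 SE, adjusted p = 0.00969). That call rests on 2 to 13 recovered reads in knockout macrophages, and Tyro3 met the filter only with the monocyte libraries, where it is higher. In wild-type mice (-0.45) Tyro3 passed only with the mouse as a replicate block (adjusted p = 0.0400; 0.133 without the block) and without macrophage library 1 (0.0454).

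**Figure D4:**
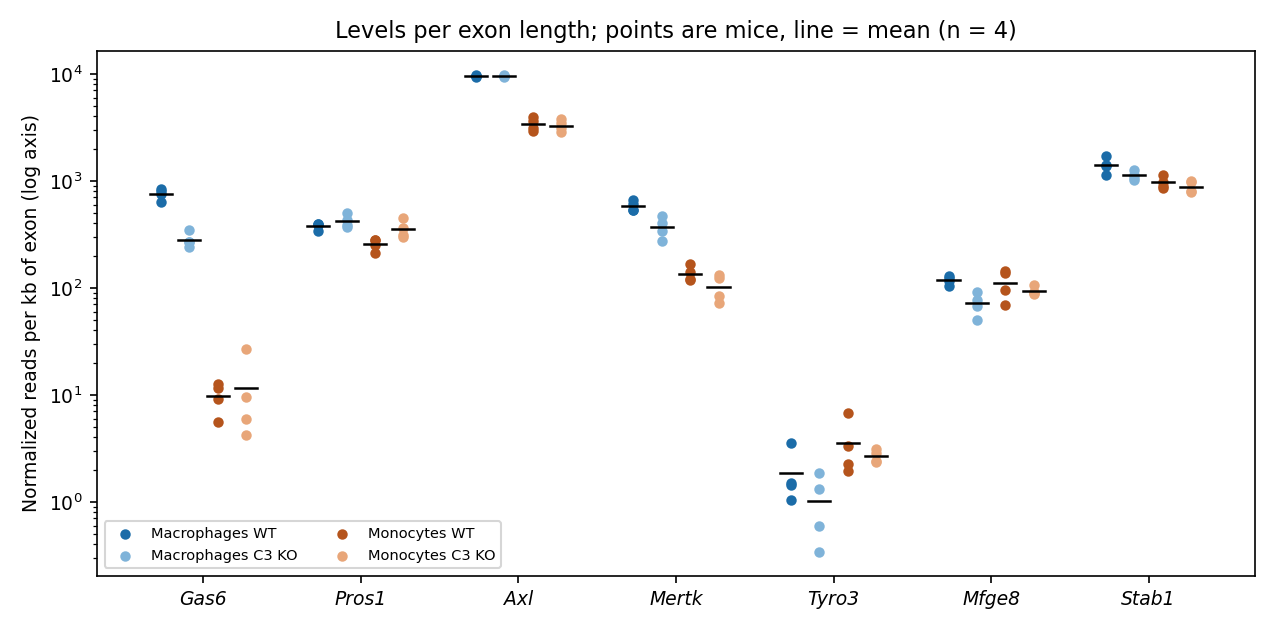
Normalized reads per kilobase of exon (y axis, log scale) of 7 genes in the 4 groups (points are mice, lines are means, n = 4). Axl lies at the top in each group (means 9573, 9590, 3411 and 3292) and Tyro3 at the bottom (1.88, 1.029, 3.58 and 2.69), while Gas6 spans the range from 758.7 in wild-type macrophages to 9.73 in wild-type monocytes.

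Per exon length the receptors and ligands thus ranked differently by group. In wild-type macrophages the means of normalized reads per kilobase were 9573 for Axl, 1408 for Stab1, 758.7 for Gas6, 588.8 for Mertk, 379.5 for Pros1, 118.7 for Mfge8 and 1.88 for Tyro3. In knockout macrophages Pros1 (421.9) and Mertk (373.1) stood above Gas6 (281.1). In monocytes of both genotypes the order was Axl, Stab1, Pros1, Mertk, Mfge8, Gas6 and Tyro3. For single genes, the order of the 4 groups by normalized reads was clear-cut only for Gas6 and Mertk at the top: wild-type macrophages, knockout macrophages, then the monocyte groups, the latter overlapping each other. For Axl the macrophage groups overlapped each other, as did the monocyte groups. For Stab1 each neighbour in the order overlapped the next, and for Pros1 wild-type monocytes alone stood below their neighbour without overlap. Mfge8 ran from wild-type macrophages through wild-type and knockout monocytes to knockout macrophages, with overlap at each step.

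The wider pathway was described by 9 lists of genes with 88 rows in the matrix. In macrophages 78 were tested, of which 6 were higher and 5 lower in knockout mice, with a median log2 difference of -0.01 beside 0.00 over all genes tested. That share of calls, from lists chosen with earlier results known, stands beside 5.7% of all genes. The find-me and do-not-eat-me receptors held most of the calls, 4 higher and 2 lower of 9. S1pr1, a receptor for the attractant sphingosine 1-phosphate, fell from 571.7 ± 87.0 to 275.7 ± 41.7 normalized reads (SD, n = 4 each; log2 difference -0.77, limma, adjusted p = 0.000688). Cd47, the do-not-eat-me signal, rose (0.28, adjusted p = 0.00291), as did the lysophospholipid-responsive receptor Gpr132 (0.40, adjusted p = 0.00481). P2ry12, a nucleotide receptor, fell (-0.26, adjusted p = 0.0106), which did not pass in a single fit of the 16 libraries (adjusted p = 0.0743). Of 17 genes that handle engulfed cargo, Nr1h3, the gene of the sterol-sensing receptor LXR alpha, fell from 1147 ± 102 to 689.2 ± 87.6 normalized reads (SD, n = 4 each; log2 difference -0.53, adjusted p = 0.000926). In the same list the lysosomal nuclease gene Dnase2a fell (-0.29, adjusted p = 0.0126) and the lipid-sensing receptor gene Pparg rose (0.39, adjusted p = 0.010; 0.0819 in a single fit of the 16 libraries). Of 6 regulators of efferocytic macrophages 1 was called, the transcription factor gene Maf, which fell from 1153 ± 64.3 to 807.6 ± 107 normalized reads (SD, n = 4 each; -0.38, adjusted p = 0.00693). Vav3, an adaptor and exchange factor gene, rose (0.27, adjusted p = 0.00196; 0.1001 in a single fit of the 16 libraries) and was the only gene called of 10 tested for engulfment signalling.

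In macrophages limma called no gene among 4 other phosphatidylserine receptors, 6 integrins and partners of Mfge8, 8 other bridging proteins, 8 scavenger receptors and 10 genes of TAM signalling, shedding and carboxylation, with 0, 1, 1, 1 and 2 of them at an unadjusted p under 0.05. Of all 12568 genes tested in macrophages 5.7% were called, so counts of 0 in lists this short do not set them apart from other genes. The bridging proteins include the 3 chains of C1q. Itgb5, whose integrin binds Mfge8, stood at 24390 ± 5250 and 24400 ± 3493 normalized reads in wild-type and knockout macrophages (SD, n = 4 each).

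In monocytes 79 genes of the lists were tested, of which 2 were higher and 4 lower in knockout mice (median -0.05 beside -0.01 over all genes tested), beside 3.32% called of all genes. P2ry12 (-0.54, limma, adjusted p = 0.00643) and Nr1h3 (-0.40, adjusted p = 0.00507) fell and P2ry2, a receptor for extracellular nucleotides, rose (0.55, adjusted p = 0.00421), each in the direction it had in macrophages (0.39 for P2ry2 there, adjusted p = 0.0445). The integrin gene Itgb5 (-0.34, adjusted p = 0.0426), the sterol exporter gene Abcg1 (-0.34, adjusted p = 0.0193) and the cytokine signalling inhibitor gene Socs1 (0.65, adjusted p = 0.0332) were called as well. The calls of Itgb5, Abcg1 and Socs1 were lost without the filter on low values (adjusted p = 0.0631, 0.0550 and 0.0543). That of Itgb5 was lost as well with TMM scaling (adjusted p = 0.0912), with voom on recovered reads (0.0514) and with all 16 libraries in 1 fit (0.0655). Each was also lost without single libraries, wild-type 2, 3 or 4 and knockout 9 for all 3 genes, knockout 8 for Itgb5 and Abcg1, and knockout 6 for Itgb5 and Socs1, with an adjusted p of up to 0.130. The test of the difference between cell types called none of 79 genes by limma, where 0.617% of all 13134 genes were called. Of the 79 genes 14 had an unadjusted p under 0.05.

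**Figure D5:**
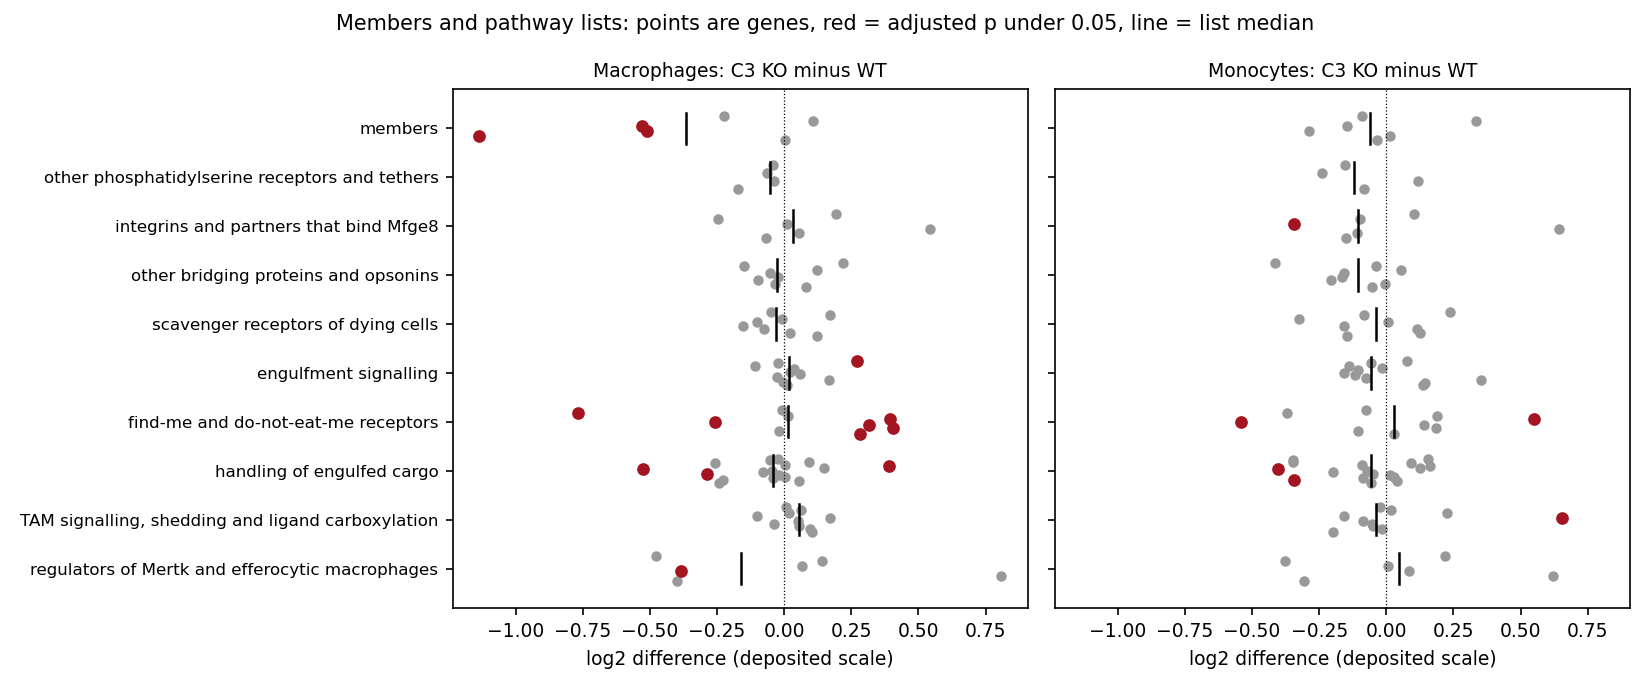
Log2 difference between C3 knockout and wild type (x axes, deposited scale) of the 6 genes and 9 lists in macrophages and monocytes, with 1 point a gene, red where the adjusted p was under 0.05, and the list median as a black line. In macrophages the 3 red points of the first row are Gas6, Mfge8 and Mertk, and the find-me and do-not-eat-me receptors hold 6 red points on both sides of 0.

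Between cell types, in wild-type mice 27 of 78 genes were higher and 35 lower in macrophages, where 63.4% of all genes were called and 31.7% were higher. In knockout mice 26 were higher and 35 lower, where 60.5% of all genes were called. The medians of -0.13 and -0.14 stand beside -0.01 and 0.00 over all genes tested. With so many genes called in these comparisons, the counts below describe the lists and do not set them apart from other genes. Values are for wild-type mice. All 4 other phosphatidylserine receptors tested were lower in macrophages of both genotypes, among them Cd300lf (-1.22 in wild type, limma, adjusted p = 6.01e-08) and Cd300a (-1.15, adjusted p = 9.81e-08). Of 6 integrins and partners of Mfge8, 2 were higher and 1 lower. The lower one was the transglutaminase gene Tgm2 (-1.56, adjusted p = 1.89e-08), and the integrin chains Itgav (0.51, adjusted p = 2.55e-05) and Itgb1 (0.32, adjusted p = 3.92e-05) were higher.

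Of 8 other bridging proteins 4 were higher and 3 lower. The C1q genes were higher, with 65450 ± 3692 normalized reads of C1qa in wild-type macrophages and 5044 ± 1280 in wild-type monocytes (SD, n = 4 each; log2 difference 2.65, limma, adjusted p = 7.49e-09). C1qb (2.16, adjusted p = 7.05e-09) and C1qc (2.59, adjusted p = 3.49e-10) followed the same direction, and thrombospondin 1, encoded by Thbs1, was the reverse (-3.50, adjusted p = 7.39e-08). Of 8 scavenger receptors of dying cells 6 were lower and 1 higher, led by Olr1 (-3.31, adjusted p = 2.48e-09) and Scarb1 (-0.83, adjusted p = 3.85e-07). Of 10 genes of engulfment signalling 3 were higher and 5 lower, with Vav3 (-0.72, adjusted p = 1.03e-06) and Elmo2 (-0.58, adjusted p = 3.39e-06) lower and Elmo1 (0.56, adjusted p = 4.46e-06) higher. All 9 find-me and do-not-eat-me receptors were called, 5 higher and 4 lower. Cd47 was lower in macrophages (-0.56, adjusted p = 2.11e-07), while the fractalkine receptor gene Cx3cr1 (0.87, adjusted p = 6.72e-07) and P2ry12 (0.61, adjusted p = 1.12e-06) were higher.

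Of 17 genes that handle engulfed cargo 5 were higher and 8 lower in wild-type macrophages. The lysosomal lipase gene Lipa was higher (0.74, limma, adjusted p = 2.48e-07), and the lipid transporter gene Abca7 (-0.93, adjusted p = 3.84e-07), the glucose transporter gene Slc2a1 (-1.22, adjusted p = 1.93e-06) and Nr1h2, the gene of LXR beta (-0.44, adjusted p = 2.50e-06), were lower. Of 10 genes of TAM signalling, shedding and carboxylation 5 were higher and 2 lower. Vkorc1, the enzyme that recycles vitamin K for ligand carboxylation, was higher in macrophages (1.53, adjusted p = 1.33e-06), as was the sheddase gene Adam17 (0.32, adjusted p = 2.45e-05), and Socs1 was lower (-0.74, adjusted p = 1.28e-05). Of 6 regulators 2 were higher and 2 lower, with Maf higher (1.23, adjusted p = 7.87e-08) and Nr4a1 lower (-1.88, adjusted p = 3.78e-08).

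Markers of other cells were measured beside these genes. For 15 fibroblast and sarcoma cell markers 0 of 11 tested were called in macrophages (limma; 6 at an unadjusted p under 0.05), with a median log2 difference of -0.88, and Lum was at 0 in all 4 knockout macrophage libraries and near 0 in wild-type ones (mean of 0.2375 normalized reads). Their summed level was 35600 to 64220 normalized reads in wild-type macrophages and 39980 to 56900 in knockout macrophages. That sum without Fn1, which macrophages also express, spanned 1350 to 3821 normalized reads in wild-type macrophages and 321.9 to 1541 in those of knockout mice. The same sum was 5111 to 10860 in wild-type monocytes and 1752 to 8429 in knockout monocytes. All 5 red blood cell genes were lower in knockout macrophages (median -1.19), with sums of 869.8 to 2467 and 320.8 to 625.1 normalized reads. In monocytes their sums were 2928 to 7158 and 578.9 to 2918 (median -1.11), and limma called none of the 5.

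Further marker sums differed between the macrophage groups without overlap, some of them resting largely on a single gene. Endothelial marker sums were 365.1 to 569.7 in wild-type and 922.5 to 1112 in knockout macrophages, of which Kdr was called (1.15, limma, adjusted p = 0.000444). Sums of T and NK cell markers were 142.2 to 186.2 and 46.09 to 89.3, with Cd4 called (-0.97, adjusted p = 0.00898). Those of B cell markers were 57.47 to 99.77 and 134.7 to 199.6, with Cd79b called (0.94, adjusted p = 0.000741). Dendritic cell markers summed to 5468 to 6796 and 4259 to 5414, with none called. Itgax alone had means of 6201 and 4979 in wild-type and knockout macrophages, beside mean sums of 6297 and 5105. The sums of 9 macrophage markers were 823300 to 964100 and 660400 to 791100, of which Mrc1 (-0.30, adjusted p = 0.00567) and Apoe (-0.42, adjusted p = 0.00929) were called lower and none higher. Apoe alone had means of 451600 and 305500 in wild-type and knockout macrophages, beside mean sums of 899100 and 734200. For 9 monocyte markers the sums were 11540 to 14060 and 14170 to 20160, with none called. Ccr2 alone had means of 11480 and 14970 in wild-type and knockout macrophages, beside mean sums of 13090 and 16390. Platelet and megakaryocyte sums (2370 to 3582 and 1794 to 3353) and neutrophil sums (1733 to 2109 and 1549 to 1942) overlapped.

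Itgam, the gene of the gate marker CD11b, fell in knockout macrophages (-0.27, limma, adjusted p = 0.0133) and knockout monocytes (-0.46, adjusted p = 0.0195). Other markers called in monocytes were Hp (-0.38, adjusted p = 0.00564), Itgax (-0.53, adjusted p = 0.0386), Kdr (0.82, adjusted p = 0.0106), the neutrophil gene Retnlg (2.39, adjusted p = 0.00794) and the dendritic cell gene Cd209a (3.66, adjusted p = 0.00418). In monocytes the list medians were -0.87 for 6 neutrophil markers tested, 0.28 for 6 dendritic cell markers and -0.05 for 4 endothelial markers. Neutrophil sums were 8178 to 12180 in wild-type and 7062 to 11130 in knockout monocytes. Those of dendritic cell markers, Itgax included, were 3784 to 5242 and 2918 to 3839, and endothelial sums 475.3 to 700.9 and 678.4 to 757.1. Itgax alone had means of 4421 and 2649 in wild-type and knockout monocytes, beside mean dendritic cell sums of 4667 and 3433. The lower dendritic cell sum in knockout monocytes thus rested on Itgax. The part of the cells that these markers stand for in the differences of Gas6, Mertk and Mfge8 was not tested.

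The genes whose pattern was most like that of each gene were taken by Pearson's r of the deposited log2 values over 16 libraries, among 11437 genes. The libraries share 2 cell types, whose difference enters each r, so these values are a description. For Gas6 they were Fcrls (r = 0.993), Eef2k (0.989) and Pomk (0.988). For Mertk they were Nacc2 (0.982), Idua (0.981) and Gpr162 (0.980), and for Axl they were Pmepa1 (0.996), Galnt12 (0.993) and Fads2 (0.992). Pros1 was closest to Hspe1 (0.952), Wdr55 (0.928) and Batf3 (0.927), and Stab1 to Plxna1 (0.923), Arfgef2 (0.903) and Tgfbrap1 (0.902). The nearest patterns to Mfge8 were those of Nr1d1 (0.895), Col18a1 (0.873) and Pcdhgc3 (0.847).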

How the data were processed

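RNA-seq of 16 libraries (SMART-Seq v4 from 5 ng of RNA, no strand) was used as deposited. The submitters' processing notes name DESeq2, STAR 2.7.2b, bcl2fastq 2.19.0.316 and build GRCm38 without their roles. The authors deposited log2 values of 30819 genes, whose transform no header names, and, per the file headers, a table for each cell type with a base mean signal, log2 fold changes with standard errors, a Wald score, p-values and adjusted p-values (for 14087 genes). Fold changes of that table were turned to knockout minus wild type. The matrix held 0 columns of other samples.

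The values followed a regularized logarithm, which was inverted with the base mean to recover reads. For 20443 genes of base mean 1 or more, 74.1% of values came within 0.05 of whole reads (99.5% at base means of 1 to 10, 22.2% above 1000). Recovered reads served to show levels and for 2 alternatives. limma 3.58.1 in R 4.3.3 (trend, robust) was fitted to the deposited log2 values of each comparison's libraries, for genes with a linear value of at least 10 in at least 4 libraries. The inversion and the fits were tested on simulated data. The smallest two-sided p that an exact permutation of 4 and 4 libraries can reach is 0.0286, and limma borrows spread across genes.

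The 6 genes, the lists and the tests were chosen with earlier results of these data known. The 6 genes and Tyro3 are named in each comparison, each list's 2 to 4 called genes of smallest adjusted p (between cell types, in wild-type mice) are named, and so are the 3 most similar genes by r. The neighbours of Mfge8 and the marker genes given values of their own were picked by their values. The titles give both libraries of a mouse the same number, which pairs them. Their deviations from the group means correlated at 0.0306 to 0.417, and those of different mice at -0.323 to 0.188. Within groups libraries differed beyond sampling noise (chi-square per gene 9.95 to 46.0). Exon lengths and coordinates are from GENCODE M21 (GRCm38), which held 30758 of the genes, and promoters are from RefSeq (GRCm38.p6, all 6 genes matched). Alternatives were no or a stricter filter (50), TMM scaling, no robust estimation, voom or log2(reads + 1) on recovered reads, all 16 libraries in 1 fit, the authors' table, the mouse as a block, and leaving out each library.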

Additional observations from a re-analysis of the deposited data

Results flagged for a closer look

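Among 256 groups of 4 libraries (64 genes), 8 had a library far from the others, its gap to the nearest divided by the group's range being above Dixon's 95% critical value, which chance passes in about 1 in 20 groups. Pros1 in wild-type macrophages was lowest in mouse 3, at 1378 normalized reads, where the other 3 mice held 1594 to 1632. In wild-type macrophages Nr1h2 was lowest in mouse 1 (2582). In wild-type monocytes Itgb1 was highest in mouse 1 (15500), Nr1h2 highest in mouse 4 (4452) and Itgax lowest in mouse 1 (3564). In knockout macrophages Kdr was highest in mouse 6 (888.4), Alas2 highest in mouse 7 (32.77) and Itgax lowest in mouse 8 (4115). For Cd209a the knockout difference itself differed between the cell types (-3.13 on the log2 scale, macrophages minus monocytes, limma, adjusted p = 0.0244).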

How the results depend on the processing

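Of 609 alternative values of the 6 genes and the counts of called genes, 560 were classed as the same. For a gene this meant the same direction and side of the threshold, and for a count a value near the main one. Among the counts 11 moved further. TMM scaling ended the macrophage call of Mertk (-0.49) and the knockout cell type call of Stab1 (0.18). With all 16 libraries in 1 fit or in the authors' deposited table the monocyte count of 427 became 981 or 1329, and Pros1 was called (0.34 and 0.48). Gas6 in monocytes turned to -0.0396 on log2(reads + 1). Mfge8 between knockout cell types was not called without the filter or with all 16 libraries in 1 fit (-0.29 in both). With the mouse as a replicate block, Pros1 was called between knockout cell types (0.18), Tyro3 between wild-type cell types, and the count of the difference of effects rose from 81 to 251. The block changed no other call of the 6 genes, Tyro3 or the called list genes checked between cell types. For the difference of effects, only the 6 genes and Tyro3 were read with the block.

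Leaving out 1 library at a time moved the macrophage count from 717 to between 458 (without wild-type mouse 2) and 656, the monocyte count to between 237 and 459 (237 to 282 without wild-type mouse 2, 3 or 4 or knockout mouse 8 or 9), and the count of the difference of effects to between 48 (without wild-type macrophage library 3) and 125 (without knockout monocyte library 7). In macrophages Mertk ran from -0.60 to -0.41, Mfge8 from -0.62 to -0.42, Stab1 from -0.29 to -0.15 and Axl from -0.00699 to 0.012. In monocytes Gas6 ran from -0.24 to 0.15, Axl from -0.0808 to 0.0159 and Tyro3 from -0.278 to 0.0594. Between cell types Mfge8 ran from -0.0488 to 0.203 in wild-type mice and from -0.37 to -0.18 in knockout mice, and Pros1 from 0.12 to 0.27 in knockout mice. For the difference of effects Gas6 ran from -1.29 to -0.90 and Axl from -0.014 to 0.0827. Values that turned in sign were those near 0 (Axl, and monocyte Gas6 and Tyro3, and Mfge8 between wild-type cell types). The macrophage difference of Gas6 passed under all 16 alternatives (-1.44 to -1.08). Depth limits Gas6 in monocytes and Tyro3, which rest on 2 to 85 reads a library. The causes of lost calls were not tested.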
